A study of Mus musculus with 16 samples.

Results

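The 7 mature miRNA names in the count table, mmu-miR-702-5p, mmu-miR-702-3p, mmu-miR-5121, mmu-miR-5099, mmu-miR-6539, mmu-miR-3620-5p and mmu-miR-3620-3p, are described here across serum stimulation of mouse fibroblasts. They are 7 of 1167 mature miRNAs counted, and they come from 5 hairpins brought together under the name exon-overlapping or mirtron-like, a name checked against the annotation below. They were chosen by name with their change over time in the same libraries already known, so their levels over time are a description with no p-value. The cells were 3T9 fibroblasts, an immortalised line grown from mouse embryo cells, which had been starved of serum for 72 h before medium with 10% fetal bovine serum was added. Small RNA was sequenced after 1, 2, 4, 6, 8, 10 and 12 h of serum and in starved cells (0 h), and every time has 2 libraries, from independent experiments. All groups share the line and the serum deprivation, and no genotype or drug was compared. A single line was used, and the fibroblast state at 0 h is one of serum deprivation, not of untreated growth.

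Most animal miRNAs are cut from a hairpin by Drosha in the nucleus and then by Dicer in the cytoplasm, and 1 strand is loaded into an Argonaute protein. A mirtron is an exception in which a short intron, released by the spliceosome, folds into a hairpin that Dicer cuts, so the ends of its arms are set by splice sites and the Drosha step is skipped. Small nucleolar RNAs guide the chemical modification of ribosomal RNA, and some are cut into stable fragments that enter miRNA catalogues. Other catalogue entries stem from pieces of longer transcripts, and the ends of the reads are one of the features used to tell such pieces from Dicer products. The bases 2 to 8 of a miRNA, its seed, pair with target mRNAs.

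The sequences of the 5 mature forms found in RefSeq (GRCm38.p6) are given first because their ends are what the read classes are counted against, with the seed in capitals.
mmu-miR-702-5p: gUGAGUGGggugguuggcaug
mmu-miR-702-3p: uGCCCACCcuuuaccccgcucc
mmu-miR-5121: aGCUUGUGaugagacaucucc
mmu-miR-3620-5p: cUGUGGGCugggcugggaagca
mmu-miR-3620-3p: cUGCUCAGccccgcccacccca
The 5 seeds differ from each other, and none was shared with any of the other tested miRNAs (372 tested miRNAs had a sequence). The mature forms mmu-miR-5099 and mmu-miR-6539 are named only. The hairpin of miR-702 is shown because both of its mature arms, in capitals, lie at the edges of an intron, and that of miR-5099 because few of the reads counted under that name were classed as matching their hairpin.
Mir702: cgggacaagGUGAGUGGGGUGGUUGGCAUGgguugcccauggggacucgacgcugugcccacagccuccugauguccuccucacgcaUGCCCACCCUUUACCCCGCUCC
Mir5099: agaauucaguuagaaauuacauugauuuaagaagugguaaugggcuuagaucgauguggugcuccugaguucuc
The small nucleolar RNA Snord33 (84 bases, GENCODE M21, written as DNA) is shown because it contains the whole of mmu-miR-5121, in capitals.
Snord33: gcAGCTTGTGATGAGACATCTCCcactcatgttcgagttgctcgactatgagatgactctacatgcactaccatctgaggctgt

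The positions below are those of the GRCm38 annotation (GENCODE M21 with RefSeq). The build used for the deposited counts is not given in the sources used here. The Mir702 hairpin (chr5:136991433-136991541, + strand) lies at a short intron of Plod3, which encodes a lysyl hydroxylase that modifies collagen, and its first 9 bases are the end of a Plod3 exon. mmu-miR-702-5p starts at the first base of the 102-base intron (chr5:136991442-136991543), and mmu-miR-702-3p ends 2 bases before the intron's end, as mirtron arms do. Only 3 of the 372 tested miRNAs with a mature position began at the first base of an annotated intron, mmu-miR-702-5p among them, and 29 ended within 2 bases of an intron's end, mmu-miR-702-3p among them.

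The Mir5121 hairpin (chr7:45126918-45126991, - strand) lies within Rpl13a, a ribosomal protein gene known for the small nucleolar RNAs in its introns. It shares 1 base with the spliced Rpl13a exon, 30 of its bases lie in an exon of an Rpl13a transcript annotated as processed, on the same strand, and all 74 lie in Rpl13a transcripts annotated as retaining the intron. mmu-miR-5121 takes up positions 3 to 23 of Snord33, on the same strand. That stretch holds TGATGA, at positions 9 to 14, the core of the C box that binds the proteins of box C/D small nucleolar RNAs. A search of both strands found TGATGA 1 time in Snord33, and 408 of 1507 annotated small nucleolar RNA transcripts (27.1%) hold it on either strand, 3 of the 4 that are 84 bases long among them. Among the 449 tested miRNAs, 15 had a mature sequence inside an annotated small nucleolar RNA gene.

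The name exon-overlapping holds only in part for the other hairpins. Mir3620 (chrX:150547385-150547445, - strand) lies with all 61 bases over a first exon of Alas2, the erythroid enzyme of the first step of haem synthesis, but on the opposite strand. On its own strand it lies deep in an intron of 62254 bases of Apex2, which encodes a DNA repair endonuclease. Mir6539 (chr14:67859636-67859745, - strand) lies in an intron of 1899 bases of Dock5, which encodes an activator of Rac GTPases, 153 bases after its start, and overlaps no exon. Mir5099 (chr12:36816205-36816278, + strand) overlapped no exon of another annotated gene and lay within no coding gene. Introns of non-coding genes were not searched. The data therefore hold 1 mirtron-like hairpin, 1 miRNA within a small nucleolar RNA, 1 hairpin antisense to an exon, 1 intronic hairpin and 1 outside coding genes.

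The libraries held 5852087 to 7783249 miRNA reads, and 3 reads, the upper limit behind a count of 0, are worth 0.385 to 0.513 CPM depending on the library. CPM are reads scaled to a common library total with edgeR's TMM factors. Reads carry no molecular identifiers, so such limits and the intervals below cover counting error only. The 6 fibroblast marker miRNAs (such as miR-143-3p and miR-199a-3p) summed to 180527 to 269060 CPM per library, and none was at 0. The 5 blood markers summed to 1.96 to 4.09 CPM, and the liver and pluripotent markers to at most 0.629 and 0.678 CPM. The 3 muscle markers summed to 0.979 to 2.67 CPM, and the 2 neural ones in the table to 178 to 359 CPM, most of it miR-128-3p. Of the 6 epithelial markers, miR-205-5p alone had a mean above 1 CPM, at 101 CPM. The header names 2 sequencing runs, and each holds all libraries of 1 replicate number, so run and experiment cannot be told apart. The p-values below measure only the spread between these libraries. All 7 members passed the filter on low counts, which kept 449 miRNAs. Over the 16 libraries mmu-miR-5099 had 20924 reads, mmu-miR-6539 had 5721, mmu-miR-702-3p had 3534, mmu-miR-5121 had 867, mmu-miR-702-5p had 257, mmu-miR-3620-5p had 181 and mmu-miR-3620-3p had 150.

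Each miRNA's reads were counted by the authors in classes, which are read here from their names. Reads are equal to the reference, trimmed, or extended at the 3′ or the 5′ end, and the added bases match the hairpin or do not. The 2 arms of the mirtron-like hairpin had opposite profiles. mmu-miR-702-5p was nearly homogeneous, with 231 of 257 reads equal to the reference (89.9%, 95% Wilson interval 85.6% to 93%), and only 13 of 449 tested miRNAs had a larger reference share. The median reference share over all tested miRNAs was 37%. mmu-miR-702-3p had only 219 of 3534 reads equal to the reference (6.2%, 5.45% to 7.04%).

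Most reads of mmu-miR-702-3p were longer than the reference at the 3′ end. The added bases did not match the hairpin in 2291 reads (64.8%, 63.2% to 66.4%), from 49.1% to 75.8% by library, and matched it in 874 (24.7%, 23.3% to 26.2%), from 16.9% to 34.4%. Over all tested miRNAs the medians of these shares were 7.11% and 4.51%, and 24 had a larger unmatched share than mmu-miR-702-3p. Of its unmatched reads 93.8% carried more than 1 kind of added base, 4.1% only A and 1.05% only U. A form with only C was counted 23 times in replicate 1 and 0 times in replicate 2. The RefSeq hairpin ends at the last base of mmu-miR-702-3p, so no longer read can match that hairpin as annotated. The hairpin used for the deposited matching is not given in the sources used here. If the class names are read correctly, the 874 matched reads mean that its hairpin or mature form differs from that of RefSeq. The unmatched share was 70.4% over the libraries of replicate 1 and 59.3% over those of replicate 2.

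mmu-miR-5121 and mmu-miR-6539 had another profile, one of trimmed reads that match the hairpin almost without exception. Trimmed reads were 640 of 867 for mmu-miR-5121 (73.8%, 70.8% to 76.6%) and 4535 of 5721 for mmu-miR-6539 (79.3%, 78.2% to 80.3%), where the median tested miRNA had 15.7%. Reads equal to the reference were 17.5% for mmu-miR-5121 and 17.8% for mmu-miR-6539. Only 1 read of mmu-miR-5121 and 3 of mmu-miR-6539 carried unmatched bases at the 3′ end, so that 99.9% of the reads of each matched the hairpin, against a median of 92.8%. The table does not say from which end a trimmed read was shortened.

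mmu-miR-5099 stood at the other extreme. Of its 20924 reads, 16676 (79.7%, 79.1% to 80.2%) were extended at the 5′ end with bases that do not match the hairpin, and 3665 (17.5%, 17% to 18%) at the 3′ end. Only 127 reads were equal to the reference (0.607%, 0.51% to 0.722%), and 2.79% in all were classed by the authors as matching the hairpin, with 2 of the 449 tested miRNAs below that share. The 5′ share lay between 77.4% and 84.4% in every library. No other tested miRNA had more than 50% of its reads in this class, but miR-486b-3p came close, with 48.1% of 17218 reads. Any read in it was found for 153 of the 449. In 16672 of the 16676 reads the added 5′ bases were of more than 1 kind. These were 66.5% of the 25085 such reads over all miRNAs, from 38.8% to 80% by library, and miR-486b-3p held 7086 of the 25085. Of all reads extended at the 5′ end without a match, those with 1 kind of added base included, mmu-miR-5099 held 18.6%, from 6.63% to 28.9% by library. At the 3′ end, 67.5% of its unmatched reads had several kinds of base and 32.4% had only G.

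The 2 arms of miR-3620 were rare and differed in their ends. mmu-miR-3620-5p had 135 of 181 reads trimmed (74.6%, 67.8% to 80.4%) and 31 extended at the 3′ end without a match (17.1%). mmu-miR-3620-3p had 77 of 150 reads extended at the 3′ end without a match (51.3%, 43.4% to 59.2%), of which 40.3% had only A, 28.6% only U and 31.2% several kinds. Reads extended at the 3′ end with a match numbered 8 for mmu-miR-3620-3p, all in replicate 1. Its RefSeq hairpin also ends at the last base of the mature form, both 25174 bases before the intron's end. As for mmu-miR-702-3p, no longer read can match that hairpin as annotated, so whether the unmatched bases are absent from the genome was not tested.

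**Figure D1:**
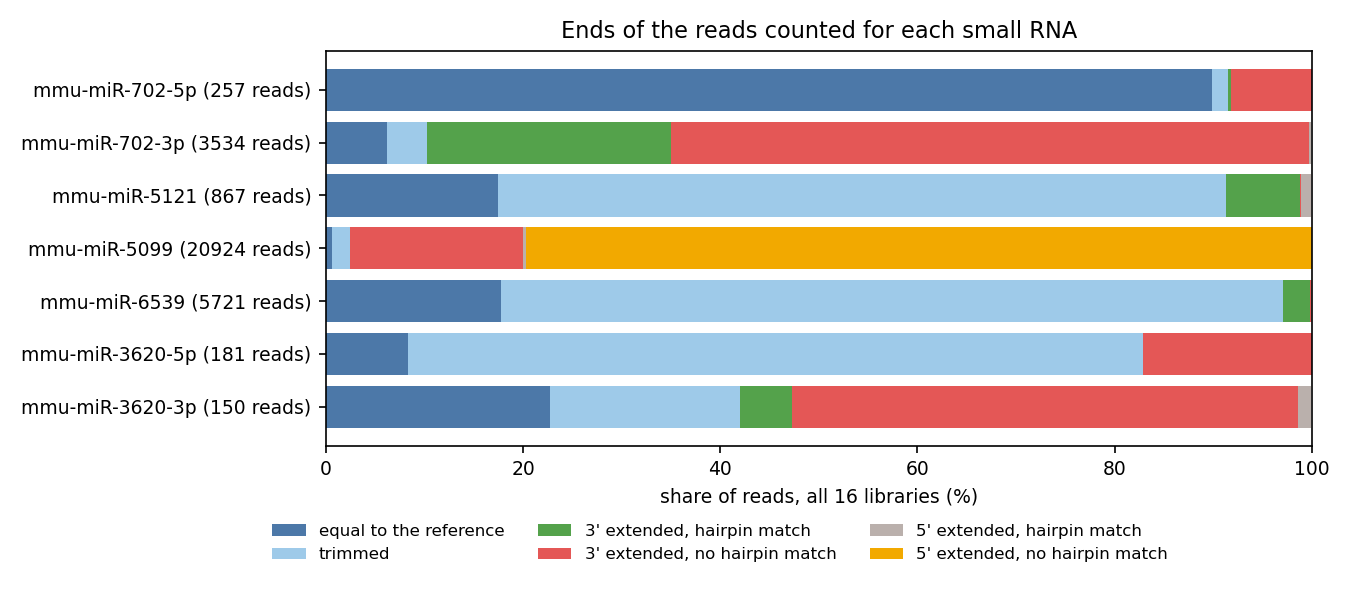
Share of reads (%) in each end class for the 7 small RNAs, summed over all 16 libraries, with the number of reads beside each name. mmu-miR-702-5p is mostly equal to the reference (89.9%), mmu-miR-5121, mmu-miR-6539 and mmu-miR-3620-5p are mostly trimmed, and mmu-miR-5099 is mostly extended at the 5′ end with unmatched bases (79.7%).

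The levels after serum fell into several shapes. mmu-miR-702-5p, mmu-miR-702-3p, mmu-miR-5121, mmu-miR-5099 and mmu-miR-6539 were each above both 0 h libraries in all 10 libraries from 4 h on, while for the arms of miR-3620 only 6 (5p) and 4 (3p) of those 10 libraries were. In bulk libraries, a change in the share of cells with a small RNA and in its amount per cell cannot be told apart. At 12 h against 0 h, 64 of 449 tested miRNAs were called by edgeR's quasi-likelihood test at an adjusted p of 0.05, or 14.3%, 37 higher (8.24%) and 27 lower. Of the 7 members 5 (those above) were among the calls, and since the members were chosen with this contrast known nothing is read from that count. The trend per hour called 113 of 449 (25.2%), 54 higher (12%), again with those 5 members. Scaled by library totals alone, all tested miRNAs had a median log2 change of -0.15 at 12 h (0.00 with TMM) and the calls were 23 higher and 45 lower. The 5 members stayed higher under that scaling, by 0.82 for mmu-miR-702-3p to 2.12 for mmu-miR-5121 on the log2 scale.

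Both arms of the mirtron-like hairpin were above both 0 h libraries in all 12 libraries from 2 h on, but by different amounts at 2 h. mmu-miR-702-5p had 1.26 and 0.541 CPM in the 0 h libraries (replicate 1 and then replicate 2), 0.672 and 0.879 at 1 h, 3.26 and 3.32 at 2 h, 2.27 and 2.34 at 4 h, 2.72 and 2.02 at 6 h, 3.29 and 2.71 at 8 h, 2.78 and 2.88 at 10 h, then 3.29 and 4.09 at 12 h. The 12 libraries above both 0 h libraries are those of 2 h and later, and the step lies between 1 and 2 h. Against 0 h the fitted log2 change was -0.21 after 1 h (SE 0.47), 1.86 after 2 h (SE 0.37) and 2.02 after 12 h (SE 0.36). It rests on few reads, 48 in the 12 h libraries and 13 in the 0 h libraries, a ratio of 3.69 per library total with an exact counting interval of 1.97 to 7.41. Without 0 h replicate 1 the 12 h value was 2.76, and without 0 h replicate 2 it was 1.53.

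mmu-miR-702-3p, the more abundant arm, was only slightly higher at 2 h, with a fitted log2 change of 0.16 (SE 0.21). It had 21.7 and 23.4 CPM at 0 h, 20.7 and 19.3 at 1 h, 26.2 and 24.3 at 2 h, 25.8 and 42.8 at 4 h, 35.4 and 36.1 at 6 h, 38.9 and 37.1 at 8 h, 43.3 and 40.6 at 10 h, then 43.5 and 45.3 at 12 h. From 2 h on the means followed the order of time, and neighbouring times in that order overlapped only where 4 h was one of them. The 12 h libraries were 2.01 times the 0 h library in replicate 1 and 1.93 times in replicate 2, with a fitted log2 change of 0.98 (SE 0.21). The 5p arm held 6.78% of the reads of the hairpin over all libraries, from 2.26% to 12% by library, with the highest shares at 2 h (11.1% and 12%).

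mmu-miR-5121, whose sequence lies within Snord33, was low and level for 2 h and higher from 4 h on. It had 2.94 and 3.11 CPM at 0 h, 2.96 and 3.37 at 1 h, 3.4 and 4.08 at 2 h, 6.32 and 9.49 at 4 h, 6.16 and 14.1 at 6 h, 10.7 and 18.6 at 8 h, 7.03 and 9.85 at 10 h, then 9.57 and 20 at 12 h. The highest value up to 2 h (4.08) lay below the lowest from 4 h on (6.16), and replicate 2 was the higher library at every time. The 12 h library was 3.26 times the 0 h library in replicate 1 and 6.42 times in replicate 2. The fitted log2 change at 12 h was 2.28 (SE 0.45), or 1.69 without 12 h replicate 2, where mmu-miR-5121 was no longer among the calls. Whether its reads came from Snord33, from the Mir5121 hairpin or from Rpl13a transcripts was not tested. Whether Snord33 itself or its host transcript changed was not measured, since only miRNA entries are in the table.

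mmu-miR-5099 had the shape of a step. It had 115 and 61.7 CPM at 0 h, 91.1 and 85.8 at 1 h, 134 and 119 at 2 h, 276 and 205 at 4 h, 324 and 255 at 6 h, 289 and 215 at 8 h, 255 and 222 at 10 h, then 239 and 216 at 12 h. The highest library up to 2 h (134 CPM) was below the lowest from 4 h on (205 CPM), and, ordered by their means, neighbouring times from 4 to 12 h overlapped. The fitted log2 change was 0.52 after 2 h, 1.71 after 6 h and 1.36 after 12 h (SE 0.26 each). The 0 h libraries differed from each other by the largest ratio, and leaving out replicate 1 of 0 h gave 1.92 at 12 h, leaving out replicate 2 gave 0.98.

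mmu-miR-6539 was higher at nearly every later time than at the one before, with its highest level at 12 h. It had 23.4 and 31.5 CPM at 0 h, 23.2 and 32.1 at 1 h, 24.1 and 36.5 at 2 h, 39.9 and 42 at 4 h, 46.7 and 65.7 at 6 h, 63.8 and 78.5 at 8 h, 70 and 72 at 10 h, then 84.6 and 129 at 12 h. Both 12 h libraries were above those of every earlier time, and both 4 h libraries were above those of 0, 1 and 2 h, which overlapped one another. The 12 h library was 3.62 times the 0 h library in replicate 1 and 4.1 times in replicate 2. The fitted log2 change at 12 h was 1.96 (SE 0.27), and the slope over all times was 0.167 per hour (SE 0.0149). The slopes of the other members were 0.189 per hour for mmu-miR-5121 (SE 0.0332), 0.125 for mmu-miR-5099 (SE 0.0299), 0.113 for mmu-miR-702-5p (SE 0.0331) and 0.0912 for mmu-miR-702-3p (SE 0.0131). Those of the arms of miR-3620 were 0.0236 for mmu-miR-3620-5p (SE 0.0233) and -0.0527 for mmu-miR-3620-3p (SE 0.0413).

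The arms of miR-3620 stayed near the counting limit. mmu-miR-3620-5p lay between 0.91 and 2.52 CPM, with no pair of neighbouring times apart from each other, and its 12 h change was 0.39 (SE 0.42). mmu-miR-3620-3p had 0.448 and 0.314 CPM at 12 h, against 1.4 and 1.62 CPM at 0 h. These are 3 and 2 reads at 12 h and 10 and 12 reads at 0 h, a ratio of 0.227 per library total with an exact counting interval of 0.0671 to 0.614. The 12 h libraries were the lowest of the 16, and the other times ran from 0.709 to 2.37 CPM with 4 h the highest by its mean of 2.05 CPM. The fitted change at 12 h was -1.93 (SE 0.62). mmu-miR-3620-3p was not among the calls of the main fit, from which nothing is read. With the replicate number as a block the change was -1.92, and under total counts it was -2.09. With only the 0 h and 12 h libraries it was -1.95. All of these values rest on the same 3 and 2 reads at 12 h.

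**Figure D2:**
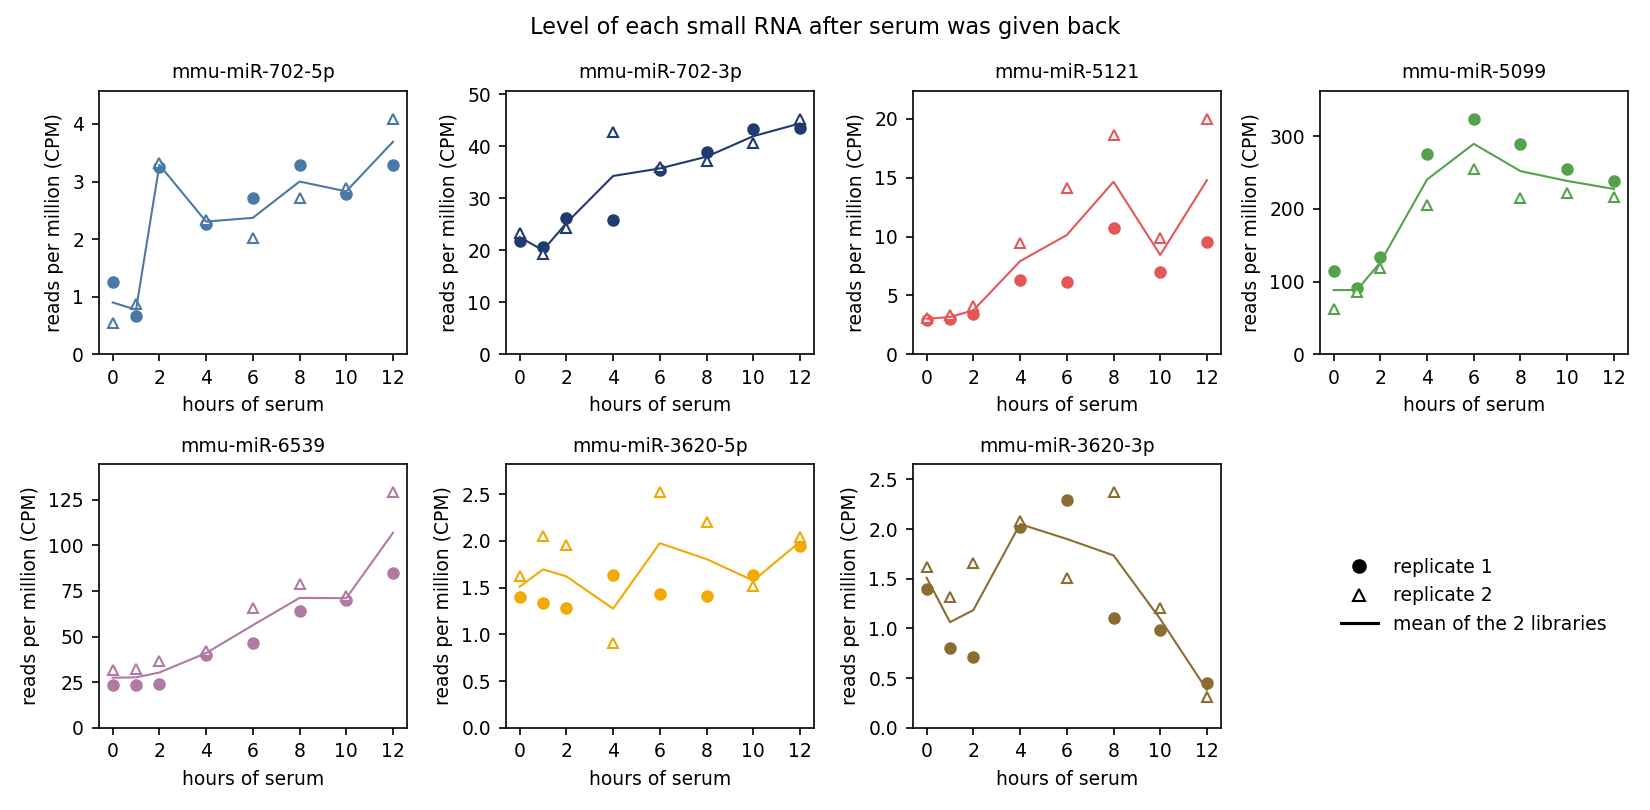
Level of each small RNA (CPM, linear axis from 0) against hours of serum, with filled circles for replicate 1, open triangles for replicate 2 and a line through the mean of the 2 libraries. mmu-miR-702-5p has its step between 1 and 2 h, mmu-miR-5121 and mmu-miR-5099 between 2 and 4 h, and mmu-miR-6539 is highest at 12 h.

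**Figure D3:**
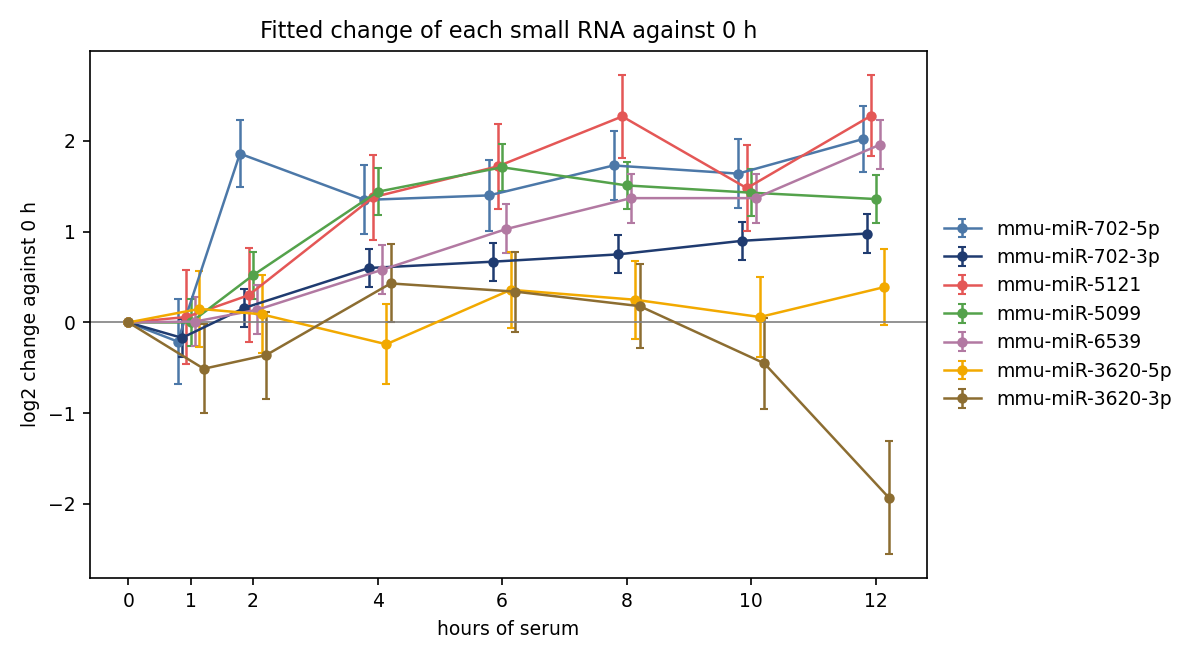
Fitted log2 change of each small RNA against 0 h (edgeR, all 16 libraries in 1 fit, bars are ± 1 SE) at each time of serum, with points set slightly apart along the time axis. At 12 h mmu-miR-5121 (2.28), mmu-miR-702-5p (2.02) and mmu-miR-6539 (1.96) are above mmu-miR-5099 (1.36) and mmu-miR-702-3p (0.98), and mmu-miR-3620-3p is at -1.93.

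The mix of ends was then followed over time. A class slope is taken against the total of its own miRNA, the value on which the members were chosen, so those of the members are a description with no p-value. For each of 1059 class entries in the whole table, edgeR's diffSpliceDGE compared the slope per hour of the class with that of its own miRNA, and 40 (3.78%) were called at an adjusted p of 0.05. None of the 13 entries of the members was called, from which nothing is read, and 1 of them and 151 of the 1059 had an unadjusted p under 0.05. The limma fit of log-odds called 350 entries, 2 of them members' (the reference classes of mmu-miR-702-3p and mmu-miR-5099), and the fit with the replicate number as a block 118, 1 of them a member's (the reference class of mmu-miR-702-3p).

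The reference class of mmu-miR-702-3p did not follow its total. Its reads equal to the reference numbered 13 and 18 at 0 h, 12 and 12 at 1 h, 15 and 14 at 2 h, 13 and 22 at 4 h, 13 and 16 at 6 h, 12 and 8 at 8 h, 9 and 17 at 10 h, then 12 and 13 at 12 h. They lay between 8 and 22 throughout, while all its other reads numbered 554 at 12 h, against 297 at 0 h. The reference share was 4.12% and 4.51% in the 12 h libraries, against 8.39% and 10.4% in the 0 h libraries, and no library after 2 h reached a value as high as any up to 2 h. Its log2 class slope was -0.0981 per hour (SE 0.0274), where the level of mmu-miR-702-3p had a slope of 0.0912, so that a flat class under a higher total gives a slope of about this size. The fit with the replicate block gave -0.0982 (SE 0.0236), limma on log-odds -0.107 (SE 0.0159) and the fit with no filter on low counts -0.0978 (SE 0.0281). With 1 library left out it ran from -0.109 to -0.0906, and of those 16 fits 1 called it, the one without 10 h replicate 2. Counted by reference reads alone, mmu-miR-702-3p had a 12 h log2 change of -0.11 (SE 0.41), against 0.98 for all its reads.

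**Figure D4:**
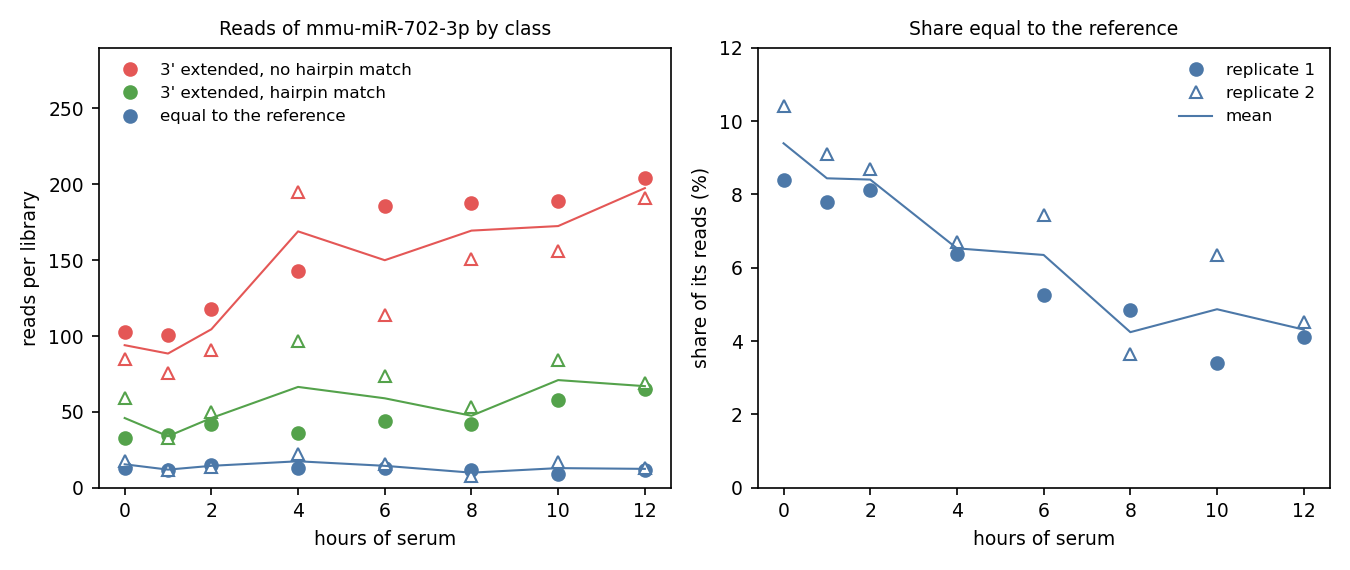
Left, reads of mmu-miR-702-3p per library in 3 end classes against hours of serum. Right, the share of its reads equal to the reference (%); circles are replicate 1, triangles replicate 2 and lines the mean, and the share is 4.12% and 4.51% at 12 h, against 8.39% and 10.4% at 0 h.

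No class slope of the other members was called by diffSpliceDGE. The reference class of mmu-miR-6539 had a slope of 0.0466 per hour (SE 0.0255), and over both libraries of a time it held 9.25% of the reads at 0 h, 25.4% after 4 h and 17.1% after 12 h. Trimmed reads remained its main form at every time, between 71.5% and 90% of its reads. mmu-miR-5121 had 1 reference read in the 0 h libraries and 26 in those of 12 h, a share of 13.6% at 12 h and 2.27% at 0 h, and at 2 h the share was 35.3%. Its reference class slope was -0.0673 (SE 0.0658) in edgeR and 0.0429 (SE 0.074) by limma on log-odds, so its direction depends on the model. The unmatched 5′ class of mmu-miR-5099 had a slope of -0.00333 (SE 0.0277), and the class held 77.4% to 84.4% of the reads by library. Its reference class had 0.0535 (SE 0.0571), and limma on log-odds gave 0.0895 (SE 0.0309).

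Related miRNAs give the setting for the members' profiles. A list of miRNAs commonly described as made without Drosha or from small nucleolar RNAs held 8 tested names outside the members, and edgeR, DESeq2 and limma-voom called 0 of them at 12 h (0 at an unadjusted p under 0.05), with a median log2 change of -0.11. The most abundant were miR-484 (-0.12, SE 0.13), miR-320-3p (-0.31, SE 0.18), miR-1839-5p (0.14, SE 0.17) and the mirtron arm miR-877-5p (0.40, SE 0.26). Of 57 tested miRNAs outside the members whose hairpin overlaps an exon of a coding gene, 4 rose and 5 fell, with a median of 0.06. Of the 14 others with a mature sequence inside a small nucleolar RNA gene, edgeR called 0 (2 at an unadjusted p under 0.05) and DESeq2 and limma-voom 0. Their median was 0.02, where the 449 tested had a median of 0.00. Of all 449, 64 (14.3%) were called at 12 h and 113 (25.2%) over the trend per hour. Over that trend 1 of the 8 rose and 0 fell, and 6 of the 57 rose and 8 fell. Of the 14, 1 rose and 1 fell. Those 14 matched their hairpin in a median of 96.2% of reads, as mmu-miR-5121 did in 99.9%, but none had more than 50% of its reads trimmed. None of their host genes carries a Snord name as Snord33 does, so the kind of small nucleolar RNA was not matched in this comparison.

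The end classes of other miRNAs at intron edges were set beside the 3′-extended profile of mmu-miR-702-3p. Outside the members, 30 tested miRNAs start at the first base of an intron or end within 2 bases of its end, a list drawn up after the profile of mmu-miR-702-3p had been seen. In 17 of these 30 more than 50% of the reads were extended at the 3′ end without a match, against 40 of all 449, and the medians were 57.3% and 7.11%. Where the mature form ends 1 or more bases before the end of the RefSeq hairpin, 4 of 9 intron-edge miRNAs and 13 of 305 others passed 50%. Where it ends at the last base of the hairpin, as mmu-miR-702-3p does, 12 of 17 intron-edge miRNAs and 1 of 8 others did. The 30 had a median log2 change of 0.17 at 12 h. Over the trend per hour 4 of the 30 rose and 2 fell, where 25.2% of all 449 were called. DESeq2 and limma-voom called 2 each at 12 h. Where edgeR called 14.3% of all 449 at 12 h, it called 3 of the 30, all higher. They were miR-7068-3p (0.73, SE 0.17; adjusted p = 0.00863, edgeR quasi-likelihood), miR-6944-3p (0.67, SE 0.20; adjusted p = 0.036, edgeR) and miR-6963-3p (1.77, SE 0.52; adjusted p = 0.036, edgeR).

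**Figure D5:**
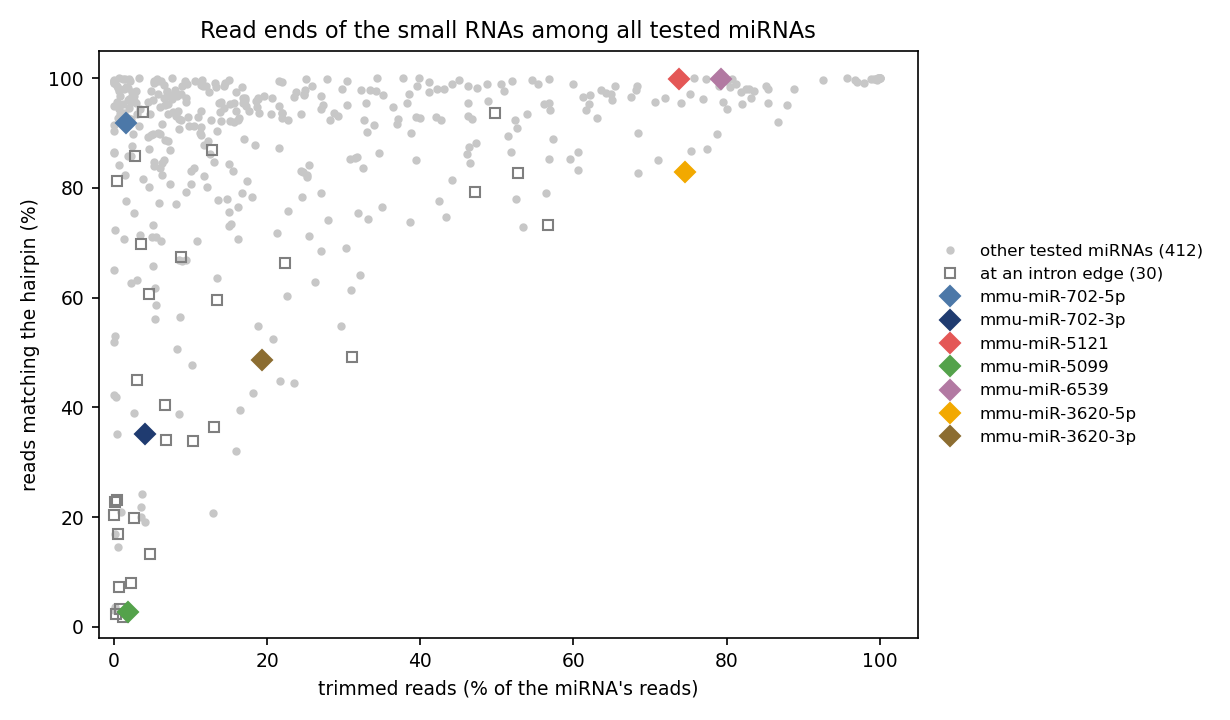
Share of reads matching the hairpin (%) against the share of trimmed reads (%) for the 449 tested miRNAs, with the 7 small RNAs as coloured diamonds and the 30 other miRNAs at an intron edge as open squares. mmu-miR-5121 and mmu-miR-6539 sit at the top right (99.9% matching). mmu-miR-702-3p (35.2%) lies at the lower left among intron-edge miRNAs, and so does mmu-miR-5099 (2.79%), whose hairpin lay within no coding gene. Most reads of mmu-miR-5099 were unmatched at the 5′ end (79.7%), and those of mmu-miR-702-3p at the 3′ end (64.8%).

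The course of each member over the 16 libraries was compared with that of every other tested miRNA by Pearson's r of log2(CPM + 0.5), as a description in which all points share libraries and runs. mmu-miR-6539 was most like miR-222-3p (r = 0.97), then miR-92a-3p and miR-29a-3p (0.94 each). mmu-miR-5121 was most like miR-149-5p (0.94), miR-92a-3p (0.92) and miR-222-3p (0.91), and mmu-miR-702-3p like miR-29a-3p, miR-221-5p and miR-92a-1-5p (0.92 each). mmu-miR-702-5p, with its early step, was most like miR-92a-1-5p (0.88), miR-29b-1-5p (0.84) and miR-365-2-5p (0.81). mmu-miR-5099 was most like miR-455-5p (0.91), miR-423-5p (0.89) and miR-155-5p (0.88). The arms of miR-3620 had weaker likenesses, 0.79 to miR-3060-3p for mmu-miR-3620-3p and 0.63 to miR-30a-3p for mmu-miR-3620-5p. Among the members the highest value was 0.91, between mmu-miR-5121 and mmu-miR-6539. With these mmu-miR-3620-5p, also mostly trimmed, had 0.37 and 0.47. The values of mmu-miR-702-3p, mostly extended at the 3′ end, were 0.85 and 0.86. The arms of miR-702 had 0.73 with each other, and those of miR-3620 had -0.10.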

How the data were processed

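Small RNA was sequenced from 16 libraries (TruSeq small RNA kit, 1000 ng of total RNA, per the labels' protocols). The authors deposited raw counts of reads, split by miRNA and by class of read end. CASAVA 1.8.0 appears in the submitters' processing notes. Aligner, mismatch rules and miRBase release: not given in the sources used here. Entries for the kind of added base repeat reads of the unmatched class (966 of 966 classes equal their sum), so the 8 main classes were summed, after 1 duplicate entry was dropped from 6511. Counts of 1167 miRNAs were fitted with edgeR 4.0.16 (R 4.3.3; quasi-likelihood, TMM factors 0.935 to 1.07, filterByExpr at a minimum of 10 counts, Benjamini-Hochberg adjustment), and class counts with diffSpliceDGE (its p-values are not given for members, whose class slopes are relative to the level they were chosen on); limma 3.58.1 and DESeq2 1.42.0 were alternatives. An SE is the absolute log2 change divided by the root of its F statistic. The fits were tested on simulated data. Members and lists were chosen with earlier results of these data known; each member's 3 most correlated miRNAs and the most abundant list members were named.

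Replicate numbers were taken as pairing the libraries, since the file header places each number in a run of its own: for all 28 pairs of times the same-numbered libraries deviated together (r 0.13 to 0.60). The main fits and the SEs given for members left that block out, and with it 108 miRNAs were called at 12 h against 64 without it. The SE of the 12 h change was then 0.27 for mmu-miR-5121 (0.45 without the block) and 0.37 for mmu-miR-702-5p (0.36 without it). Alternatives covered scaling, filters, tools, libraries left out, classes and the block.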

Additional observations from a re-analysis of the deposited data

How the results depend on the processing

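The number of miRNAs called at 12 h (64) was 108 with the replicate block. Leaving out 1 library gave 37 to 65, with 42 without replicate 1 of 0 h or of 12 h and 37 without replicate 2 of either. The number called over the trend (113) was 59 without both 0 h libraries and 96 to 120 with 1 library left out. The number of end-class entries called (40) was 118 with the replicate block, 350 with limma on log-odds and 31 to 46 with 1 library left out. The 12 h change of mmu-miR-702-3p reversed to -0.11 when only reads equal to the reference were counted, against 0.98 for all its reads. That count gave larger changes for mmu-miR-5121 (4.57, SE 1.31), mmu-miR-6539 (2.87, SE 0.36) and mmu-miR-5099 (2.59, SE 0.87). With all their reads these were 2.28, 1.96 and 1.36. mmu-miR-702-5p had 2.20 against 2.02, and the arms of miR-3620 were not among the 5 members tested under that count. Of the 5 members called, mmu-miR-5121 was lost without 12 h replicate 2, and over the trend mmu-miR-702-5p was lost without both 0 h libraries; mmu-miR-3620-3p was gained at 12 h in 7 settings. All other 12 h and trend changes of the members kept their sign. The block brought in mmu-miR-3620-3p at 12 h and the reference class of mmu-miR-702-3p (-0.0982 per hour) and changed no other member's call. The members were chosen with these contrasts known, so nothing is read from their gains and losses of calls. The causes were not tested. Depth limits both arms of miR-3620 and mmu-miR-702-5p, with medians of 9 to 18 reads per library.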
